A study of Homo sapiens with 24 samples.

Results

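NEAT1 and MALAT1 are long RNAs that stay in the nucleus, and they are neighbours on the long arm of chromosome 11. They are described here across 8 culture media, as the 2 rows of the deposited table with those gene names among its 58735 genes. The cells were OVCAR8, an established line of high grade serous ovarian cancer, kept in ultra-low attachment plates that prevent adhesion. Each group had 3 libraries made from polyA RNA, 24 in all. One group had fresh medium. The others had medium from proliferating cells given vehicle (proliferative medium), medium from cells driven into senescence by cisplatin (senescent medium), that senescent medium after boiling, its components below 3 kDa (small fraction), or its components above 3 kDa (large fraction). A further group was pre-treated with proliferative medium and another with senescent medium; what came after the pre-treatment is not in the labels. Conditioned media were mixed 1 to 1 with RPMI that held 5% serum. Nothing in the labels ties the replicates to separate cultures, so p-values measure only the spread between these libraries, which may be technical.

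NEAT1 is the scaffold of paraspeckles, nuclear bodies that assemble on its long form and hold RNA-binding proteins such as NONO and SFPQ. It is known as a transcript induced by p53, by low oxygen and by other stresses. MALAT1 collects in nuclear speckles, beside splicing factors such as the SR proteins, and is among the abundant nuclear RNAs of many cell types. The long form of NEAT1 and MALAT1 share an unusual end. RNase P cuts the primary transcript upstream of a small tRNA-like RNA, and the new end, which has no polyA tail, is protected by a triple helix of U-rich runs with an A-rich tract. The short form of NEAT1 ends at an ordinary polyA signal.

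NEAT1 (ENSG00000245532, a lincRNA on the plus strand) spans bases 65422774 to 65445540 of chromosome 11 on GRCh38. MALAT1 (ENSG00000251562, also a lincRNA on the plus strand) spans bases 65497688 to 65506516. The gap between them is 52.1 kb. The ends of the transcripts are shown because polyA libraries select on them. In the first 2 sequences, both read from GENCODE 29 transcripts in the 5′ to 3′ direction, capitals mark the 2 U-rich runs and the A-rich end. In the last one, capitals mark the polyA signal.
NEAT1 long form, transcript NEAT1-202, chr11:65445421-65445540, plus strand: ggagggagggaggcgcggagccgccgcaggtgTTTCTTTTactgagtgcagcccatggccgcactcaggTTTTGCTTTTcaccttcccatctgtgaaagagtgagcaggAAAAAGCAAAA
MALAT1, processed end within transcript MALAT1-202, chr11:65505997-65506116, plus strand: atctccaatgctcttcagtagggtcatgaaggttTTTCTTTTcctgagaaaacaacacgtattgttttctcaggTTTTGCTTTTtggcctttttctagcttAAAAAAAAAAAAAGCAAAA
NEAT1 short form, transcript NEAT1-208, chr11:65426454-65426513, plus strand: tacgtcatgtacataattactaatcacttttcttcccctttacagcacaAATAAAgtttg

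Each of the first 2 sequences stops at the base before an annotated small RNA row, RF01684, which starts at 65445541 after NEAT1 and at 65506117 within the MALAT1 gene row. The row after NEAT1 had 3 counts over all 24 libraries and the row at MALAT1 had 0. Both transcripts also hold runs of A within them. In NEAT1-202, which is 22743 bases long, the longest run of A is 22 bases, and 6 runs have 9 or more. A run at least as long was found in the longest transcript of 2.28% of 19202 genes tested. In MALAT1-202, which is 8708 bases long, the longest run is 13 bases, the tract in capitals above, and 12.37% of genes have one as long. Of the 8 annotated NEAT1 transcripts, 7 are short and end at or before base 65426513. The table has 1 count per gene, so the short and long forms of NEAT1 cannot be told apart in any value below.

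The libraries held 14718120 to 21956598 counts, of which NEAT1 took 1217 to 5768 and MALAT1 took 3141 to 13600. Mitochondrial genes took 4.09% to 6.85%. Of 10 markers fixed for serous ovarian cancer cells, PAX8 was measured at 19.7 to 40.6 FPKM and the keratin KRT8 at 115 to 183 FPKM in all 24 libraries, while MUC16 was at 0.00945 FPKM at most, CDH1 at 0.184 and WT1 at 0.606. Of the markers of other cell types, PTPRC of white blood cells and DCN and COL1A2 of fibroblasts were at or near 0, with maxima of 0.0133, 0.00476 and 0.0231 FPKM. COL1A1, a collagen gene on the fibroblast list, was at 115 to 218 FPKM. In bulk RNA, fewer cells of a type and less RNA per cell cannot be told apart. For MALAT1, replicate 3 of senescent medium, replicate 1 of the small fraction and replicate 1 of proliferative pre-treatment lay far from the other 2 libraries of their groups, and values without each of them are given where they change a result.

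NEAT1 varied between media by more than it did among replicates. Values are in CPM, meaning counts brought to one library size with TMM factors, given per library with the mean ± SD (n = 3). In fresh medium the 3 libraries had 136.8, 147.8 and 145.9 CPM (143.5 ± 5.84). Proliferative medium gave 225.9, 220.6 and 218.8 CPM (221.8 ± 3.73), all above fresh medium. Senescent medium gave 96.6, 96.7 and 77.7 CPM (90.3 ± 10.9), all below every other library of the series. Boiled senescent medium gave 142.1, 146.5 and 160.4 CPM (149.7 ± 9.58), a range that overlaps fresh medium. The small fraction gave 163.7, 167.7 and 146.3 CPM (159.2 ± 11.4), with 2 of them above every boiled library. The large fraction gave 132.3, 120.0 and 130.7 CPM (127.7 ± 6.67), all 3 below the lowest library in fresh medium. Pre-treatment with proliferative medium gave 369.6, 283.6 and 302.5 CPM (318.5 ± 45.2), with replicate 1 the highest of the series. Pre-treatment with senescent medium gave 279.5, 285.6 and 309.7 CPM (291.6 ± 16.0). The 6 libraries of the pre-treated groups lay above all 18 others.

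**Figure D1:**
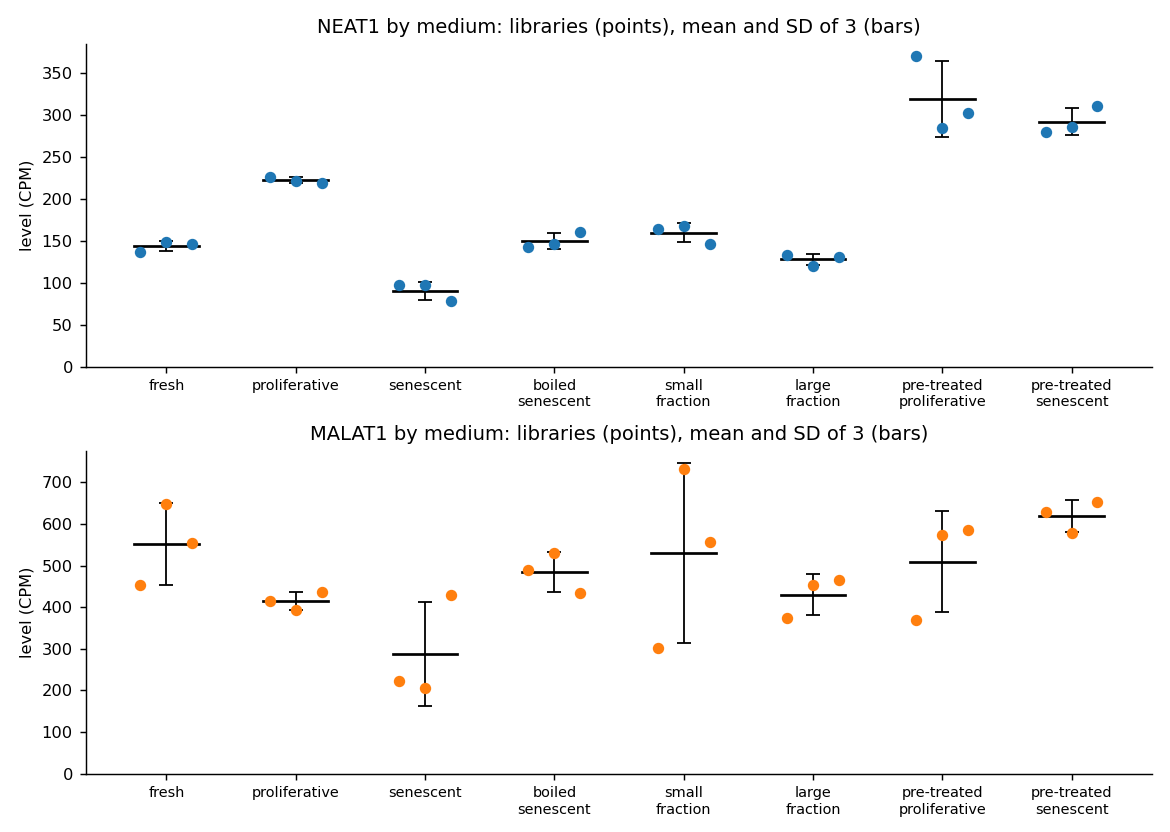
Levels of NEAT1 (top) and MALAT1 (bottom) in CPM on linear axes from 0, in the 8 groups; points are libraries and bars are the mean and SD of 3. NEAT1 was lowest in senescent medium (90.3 CPM) and highest in the pre-treated groups (291.6 and 318.5 CPM), while the MALAT1 libraries of several groups were widely spread.

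The groups in order of NEAT1 level, from the highest, were proliferative pre-treatment, senescent pre-treatment, proliferative medium, small fraction, boiled medium, fresh medium, large fraction and senescent medium. Of the 7 neighbouring pairs in that order, 3 differed in the edgeR quasi-likelihood test with Benjamini-Hochberg adjustment. These were senescent pre-treatment over proliferative medium (log2 difference 0.40, adjusted p = 0.00229), proliferative medium over the small fraction (0.48, adjusted p = 0.000592) and the large fraction over senescent medium (0.50, adjusted p = 0.00097). The pre-treated groups (adjusted p = 0.756), the small fraction and boiled medium (0.524), boiled and fresh medium (0.672), and fresh medium and the large fraction (0.199) did not differ past the threshold of 0.05. Over all 28 pairs of groups, NEAT1 was called in 22, and 2.48% of the 19210 genes tested were called in at least that many. The test of any difference among the 8 groups gave an adjusted p of 1.36e-11 for NEAT1, in a series where 70.9% of genes tested passed it.

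Beside fresh medium, NEAT1 was higher in proliferative medium and lower in senescent medium. NEAT1 rose by 0.63 ± 0.09 on the log2 scale (± SE, edgeR adjusted p = 1.58e-05) in proliferative against fresh medium, a comparison in which 42.2% of genes were called. It fell in senescent against fresh medium (log2 change -0.67 ± 0.09, edgeR adjusted p = 2.11e-05, with 33.6% of genes called). Between the conditioned media the change was -1.30 ± 0.09 (edgeR adjusted p = 4.11e-09, 95% interval -1.49 to -1.10, with 29% of genes called), which is 0.407 times the level in proliferative medium. Neither group of libraries overlapped the other in any of these 3 comparisons. The direction and the call held without any 1 library of either group.

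The preparations of senescent medium all gave more NEAT1 than the intact medium. NEAT1 rose by 0.73 ± 0.09 in boiled against intact senescent medium (edgeR adjusted p = 9.76e-06, with 25.9% of genes called). The rise was 0.82 ± 0.09 for the small fraction (edgeR adjusted p = 8.94e-07, with 42.6% called) and 0.50 ± 0.09 for the large fraction (edgeR adjusted p = 0.00097, with 18.1% called). The small fraction exceeded the large fraction by 0.32 ± 0.09 (edgeR adjusted p = 0.0108, with 35% called). The last 2 calls were the least secure. When trends with gene length were taken out of each library, the large fraction differed from senescent medium by 0.33 (edgeR adjusted p = 0.0874). The difference between fractions had an adjusted p of 0.0536 without replicate 2 of the small fraction and 0.055 without replicate 2 of the large fraction.

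After pre-treatment NEAT1 did not differ past the threshold between proliferative and senescent medium. The change in NEAT1 from proliferative to senescent pre-treatment was -0.13 ± 0.09 (edgeR adjusted p = 0.756, 95% interval -0.31 to 0.06), in a comparison in which 0.89% of genes were called. Its interval does not reach the change of -1.30 seen with direct exposure. The difference between the 2 effects, tested as an interaction, was 1.17 ± 0.13 on the log2 scale (edgeR adjusted p = 4.56e-06), and 13.8% of genes passed that test. Both pre-treated groups stood above the directly exposed groups of the same medium. NEAT1 rose by 0.52 ± 0.09 in proliferative pre-treatment against proliferative medium (edgeR adjusted p = 0.000236, with 26.4% of genes called) and by 1.69 ± 0.09 in senescent pre-treatment against senescent medium (edgeR adjusted p = 4.06e-11, with 42.1% called), a 3.23-fold difference. These comparisons share groups, so they are not independent of each other.

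MALAT1 was the more abundant RNA per length, and its replicates were far apart. In fresh medium the libraries had 452.7, 648.6 and 555.1 CPM (552 ± 98.0), and in proliferative medium 414.0, 393.8 and 435.8 CPM (415 ± 21.0). Senescent medium gave 221.9, 207.2 and 430.6 CPM (287 ± 125). Its replicate 3 is about as high as proliferative medium, while the other 2 are the lowest of the series. Boiled medium gave 489.8, 530.8 and 434.5 CPM (485 ± 48.3). The small fraction gave 302.4, 731.0 and 557.0 CPM (530 ± 216), and includes the highest library of the series. The large fraction gave 373.2, 452.3 and 464.6 CPM (430 ± 49.6). Pre-treatment with proliferative medium gave 369.4, 573.1 and 586.0 CPM (510 ± 121), and in its replicate 1 the CPM of NEAT1 was level with that of MALAT1 (369.6 and 369.4). Pre-treatment with senescent medium gave 628.2, 577.4 and 652.2 CPM (619 ± 38.2). Only the last group lay wholly above the senescent, proliferative, boiled and large fraction groups.

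In order of MALAT1 level, senescent pre-treatment came first, followed by fresh medium, the small fraction, proliferative pre-treatment, boiled medium, the large fraction, proliferative medium and senescent medium. No neighbouring pair in that order differed past the threshold. The test of any difference among the 8 groups had an edgeR adjusted p of 0.0729, but 0.00897 without replicate 3 of senescent medium and 0.0137 without replicate 1 of the small fraction. Of 28 pairs of groups, 4 were called, and 67.8% of genes were called in at least 4. All 4 involved senescent medium, which was lower than fresh medium (log2 change -0.94 ± 0.29, edgeR adjusted p = 0.0193), the small fraction (difference 0.89 ± 0.29, edgeR adjusted p = 0.0212), proliferative pre-treatment (0.83 ± 0.29, edgeR adjusted p = 0.0303, with 42.1% of genes called) and senescent pre-treatment (1.11 ± 0.29, edgeR adjusted p = 0.00555). The libraries of senescent medium overlapped those of the small fraction and of proliferative pre-treatment.

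The other MALAT1 comparisons had wide intervals. MALAT1 was measured at a log2 change of -0.41 ± 0.29 in proliferative against fresh medium (edgeR adjusted p = 0.272, 95% interval -1.02 to 0.20), a direction opposite to that of NEAT1. For senescent against proliferative medium the change was -0.53 ± 0.29 (edgeR adjusted p = 0.195, 95% interval -1.15 to 0.09), and without replicate 3 of senescent medium it was -0.95 (adjusted p = 0.0221). Boiled exceeded intact senescent medium by 0.76 ± 0.29 (edgeR adjusted p = 0.0678), and by 1.18 without that replicate (adjusted p = 0.00608). For the large fraction the difference from senescent medium was 0.58 ± 0.29 (edgeR adjusted p = 0.192), or 1.00 without that replicate (adjusted p = 0.0221). Without replicate 1 or replicate 2 of senescent medium, 1 of the 28 pairs was called. Leaving out either of these ended the calls against fresh medium (adjusted p = 0.0898 and 0.0949) and against the small fraction (adjusted p = 0.0947 and 0.101). The call against fresh medium was also lost without fresh replicate 2 (adjusted p = 0.0742), and the call against the small fraction without its replicate 2 (adjusted p = 0.14) or replicate 3 (adjusted p = 0.0546). Between the pre-treated groups MALAT1 differed by 0.28 ± 0.29 (edgeR adjusted p = 0.85, 95% interval -0.33 to 0.89), or by 0.096 without replicate 1 of proliferative pre-treatment. Its interaction was 0.81 ± 0.41 (edgeR adjusted p = 0.224), or 1.23 without replicate 3 of senescent medium (adjusted p = 0.0406).

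**Figure D2:**
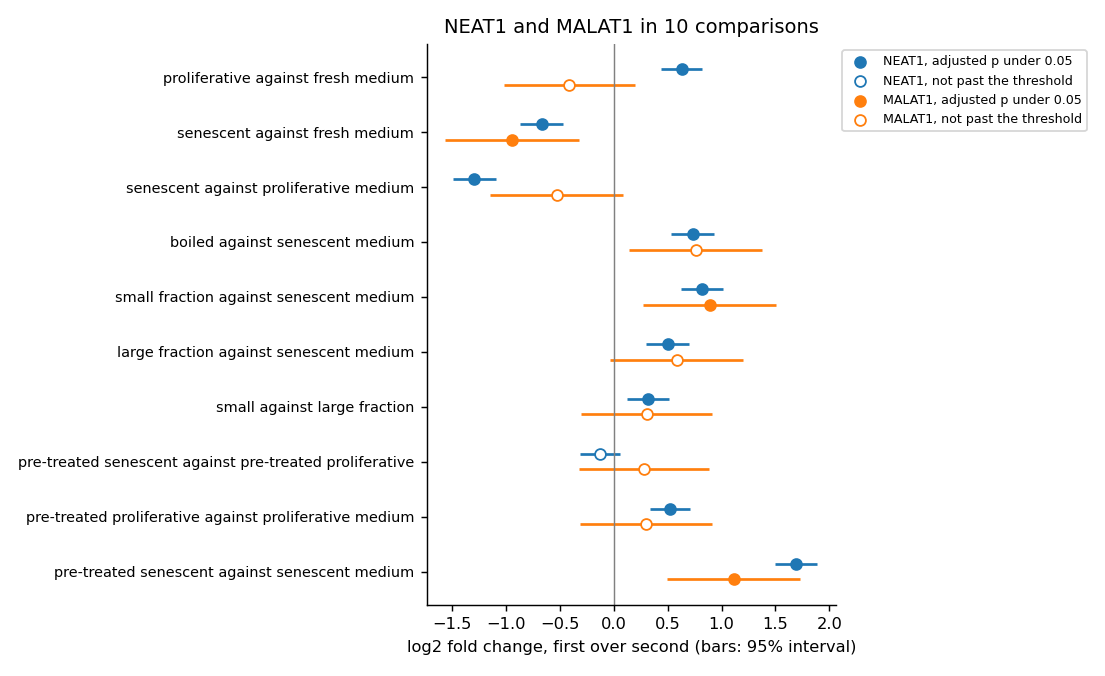
Log2 fold changes of NEAT1 and MALAT1 in 10 comparisons, each the first group over the second, with 95% intervals; filled points passed an edgeR adjusted p of 0.05. NEAT1 was called in 9 of 10 with narrow intervals, and MALAT1 in 3 of the 10, with wider intervals.

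The spread among replicates was larger than that of other genes for both RNAs, and above all for MALAT1. The SD of log2 CPM within groups was 0.36 for MALAT1, and all 500 tested genes nearest to it in level had a smaller one, with a median of 0.0499. For NEAT1 the SD was 0.116, and 95.4% of the 500 genes nearest in level had a smaller one, with a median of 0.0585. The biological coefficient of variation in the edgeR fit was 0.244 for MALAT1 and 0.0756 for NEAT1, against 0.0638 in common over genes.

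MALAT1 moved among replicates with RN7SL2, a small RNA that does not carry a long polyA tail. RN7SL2, the RNA of the signal recognition particle, was the 1 gene of 12 rows of such small RNAs with enough counts to be tested. In senescent medium RN7SL2 had 26.0, 48.7 and 154.7 CPM. Replicate 3 was the highest for both RNAs, while replicates 1 and 2 were in opposite order. In the small fraction it had 13.4, 100.9 and 49.7 CPM, the same order as MALAT1. In proliferative pre-treatment it had 18.5, 53.4 and 68.2 CPM, again the order of MALAT1. The orders differed in fresh medium, where RN7SL2 had 64.6, 62.6 and 54.6 CPM, and in proliferative medium, where it had 12.9, 20.5 and 17.0 CPM. They also differed in senescent pre-treatment, where RN7SL2 had 48.6, 55.7 and 115.1 CPM. In boiled medium (78.7, 93.4 and 74.5 CPM) and the large fraction (100.2, 126.7 and 211.6 CPM) RN7SL2 had the order of MALAT1. With group means removed, MALAT1 correlated with the share of counts on those small RNAs over 24 libraries (Pearson r = 0.875, Spearman rho = 0.793, adjusted p = 0.00923 and 0.00548 by permutation within groups). Without the 2 libraries farthest on that share, r was 0.785. This share was almost wholly RN7SL2 and is not a separate measure, as 8 of the 12 rows had no count. RN7SL2 alone had r = 0.874 with MALAT1, group means removed. With the share of the mitochondrial ribosomal RNAs r was 0.848 and rho 0.708, which did not pass (adjusted p = 0.0698 and 0.0562 by permutation), and r was 0.776 without the 2 farthest libraries. For the share of the replication-dependent histones, whose messages normally end without a polyA tail, r was 0.487 and rho 0.409. This did not pass (adjusted p = 0.133 and 0.146 by permutation), and r was 0.188 without the 2 farthest libraries. The part of these shares in the MALAT1 result was not tested. The protein-coding gene PABPC1 also moved with MALAT1 among replicates (r = 0.664, group means removed), and it moved against NEAT1 (r = -0.967). These values for PABPC1 were not tested. How many of all genes correlated as strongly was not computed, so the relation cannot be called particular to RNAs without a polyA tail.

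The correlation of NEAT1 with the small RNA share, group means removed, was r = -0.464 and rho = -0.399 over 24 libraries (adjusted p = 0.196 and 0.191 by permutation within groups), with r = -0.342 without the 2 farthest. NEAT1 was higher in replicates in which long genes and the share of mitochondrial genes were lower and genes rich in G and C were higher. The measure for length was the correlation of a library's level with log2 gene length over 10861 genes, and with it NEAT1 had r = -0.864 and rho = -0.863 (adjusted p = 0.00855 and 0.00548 by permutation), and r = -0.820 without the 2 farthest libraries. With the mitochondrial share NEAT1 had r = -0.852 and rho = -0.851 (adjusted p = 0.00875 and 0.00548 by permutation), and r = -0.793 without the 2 farthest. With the same measure for GC content, over 10860 genes, it had r = 0.834 and rho = 0.812 (adjusted p = 0.00855 and 0.00548 by permutation), and r = 0.758 without the 2 farthest. NEAT1 against the mitochondrial ribosomal RNAs had r = -0.767 and rho = -0.636 (adjusted p = 0.0698 and 0.0617 by permutation), with r = -0.586 without the 2 farthest. MALAT1 against GC had r = -0.492 and rho = -0.492 (adjusted p = 0.133 and 0.127 by permutation), with r = -0.398 without them. Values were adjusted over 15 relations, those of each RNA with 7 measures and that of the RNAs to each other, and the others did not pass. The part of the mitochondrial share in the NEAT1 result was not tested. Over all 24 libraries with group differences kept, NEAT1 had r = 0.906 with the histone share, against -0.271 with group means removed. With group differences kept, it also had r = 0.749 with the length measure, 0.0759 with the mitochondrial share and 0.0536 with GC. The length measure itself was lowest in senescent medium (-0.383 to -0.259) and highest in the pre-treated groups (0.128 to 0.302). With GC and length trends taken out of each library, the NEAT1 change in senescent against proliferative medium was -1.18 (edgeR adjusted p = 1.29e-06), and 19 of the 28 pairs were called.

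**Figure D3:**
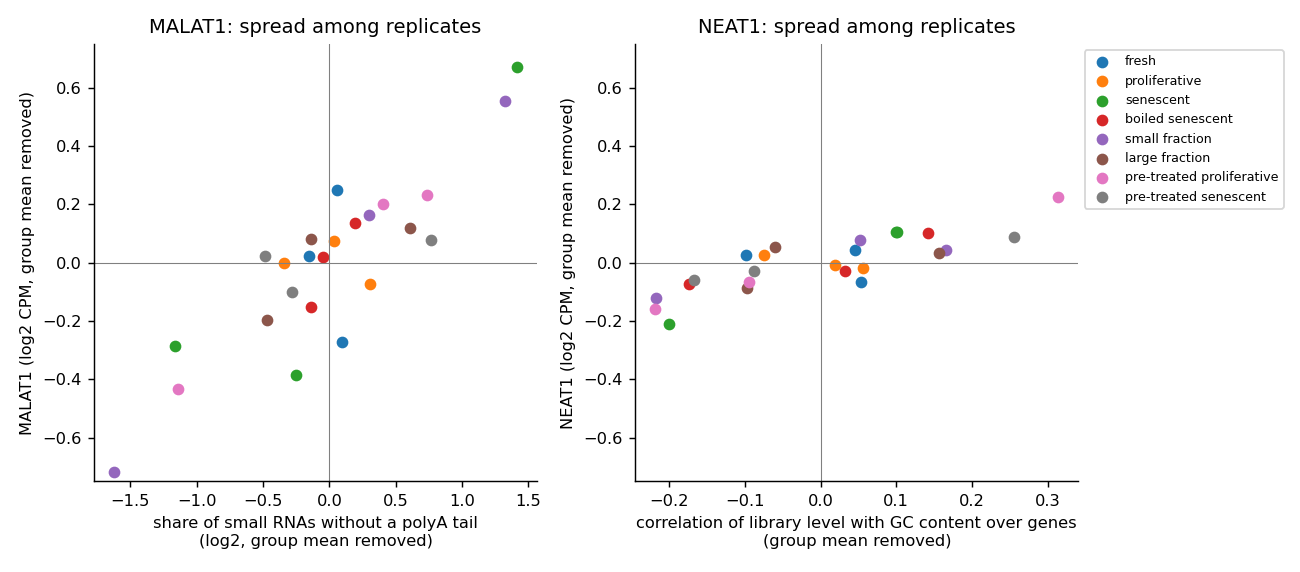
Deviations of 24 libraries from their group mean: MALAT1 (log2 CPM) against the log2 share of small RNAs without a polyA tail (left), and NEAT1 (log2 CPM) against the correlation of library level with GC content over genes (right); colours are groups. MALAT1 spans a wider range than NEAT1 on the same vertical scale, and its points follow the small RNA share with r = 0.875. That share is almost wholly RN7SL2.

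The balance of the RNAs was compared within libraries, which removes the scaling between them. Per length, MALAT1 exceeded NEAT1 in every library, at 23.3 to 81.8 FPKM against 3.37 to 16.2 FPKM, where NEAT1 is divided by the length of its whole gene row, 22767 bases, whichever form was read. The log2 ratio of NEAT1 to MALAT1 FPKM was -3.30 ± 0.20 in fresh medium and -2.27 ± 0.08 in proliferative medium (SD, n = 3), a difference of 1.03 with no overlap. Senescent medium had a mean ratio of -2.96 ± 0.76, and its replicates were -2.57, -2.47 and -3.84. The other means were -3.06 ± 0.22 for boiled medium, -3.01 ± 0.67 for the small fraction, -3.11 ± 0.22 for the large fraction, -2.02 ± 0.57 for proliferative pre-treatment and -2.45 ± 0.08 for senescent pre-treatment. In exact two-sided permutation tests, 3 of 10 comparisons reached p = 0.1, the smallest p that 3 against 3 allows, and their adjusted p over the 10 was 0.333. They were fresh against proliferative medium (given above), senescent against proliferative medium (difference -0.69) and senescent against proliferative pre-treatment (difference -0.43). The former was -0.25 without replicate 3 of senescent medium, and the latter -0.10 without replicate 1 of proliferative pre-treatment. Over the 8 group means the RNAs had r = 0.674 and rho = 0.548, values given as a description. Among replicates, group means removed, r was -0.536 and rho -0.506 over 24 libraries (adjusted p = 0.133 and 0.127 by permutation), with r = -0.435 without the 2 farthest libraries.

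The genes around NEAT1 and MALAT1 were taken from the annotation within 200 kb of either. Of 36 rows, 9 had no count in any library and 20 were tested. LTBP3, which encodes a latent TGF-beta binding protein, lies on the minus strand at bases 65538805 to 65558930, 32.3 kb past MALAT1. Its levels in the 3 libraries were 536, 523 and 499 CPM in fresh medium, 670, 672 and 691 in proliferative medium, and 410, 418 and 400 in senescent medium. After pre-treatment they were 1068, 954 and 1011 CPM (proliferative) and 953, 933 and 985 (senescent). As for NEAT1, senescent medium was lowest and the pre-treated groups were highest, with no overlap with the directly exposed groups. The groups between differed from NEAT1. LTBP3 had means of 685 CPM in boiled medium, 667 in the small fraction and 572 in the large fraction, beside 678 in proliferative and 519 in fresh medium. NEAT1 in boiled medium and the small fraction (149.7 and 159.2 CPM) was nearer to fresh (143.5) than to proliferative medium (221.8). LTBP3 was called in the direction of NEAT1 in all 9 comparisons in which NEAT1 was called. It was 1 of 12 such genes among the 19209 tested beside NEAT1 (0.0625%). Its changes were 0.38 ± 0.04 in proliferative against fresh medium, -0.34 ± 0.04 in senescent against fresh medium, -0.73 ± 0.04 in senescent against proliferative medium and 1.23 ± 0.04 in senescent pre-treatment against senescent medium (edgeR adjusted p = 5.18e-11, 2.1e-09, 1.27e-18 and 3.49e-27). Between pre-treated groups it changed by -0.08 ± 0.04 (edgeR adjusted p = 0.543). The 9 comparisons share groups.

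The other neighbours named here were called in the direction of NEAT1 in fewer comparisons. FRMD8, which ends 9.25 kb before NEAT1 and encodes a FERM domain protein, was called in the direction of NEAT1 in 4 of the 9 comparisons, and its change in senescent against proliferative medium was -0.00 (edgeR adjusted p = 0.981). PCNX3 and SSSCA1-AS1 were called so in 2, and DPF2, AP000769.1, FAM89B, EHBP1L1 and RELA, a subunit of NF-kB, in 1. SLC22A20P, POLA2, AP000944.2, TIGD3, SLC25A45, SSSCA1, KCNK7, MAP3K11, SIPA1 and AP001362.2 were called so in 0. The shares of all genes with such counts were not computed, so these counts and those over 10 comparisons cannot be called high or low. In senescent against proliferative medium 4 of the 20 tested neighbours rose and 1 fell, where 16.6% of all genes rose and 12.4% fell. In senescent pre-treatment against senescent medium 2 rose and 5 fell, where 19.6% of all genes rose and 22.5% fell. In either direction over the 10 comparisons, RELA and SSSCA1 were called in 7, AP000769.1 in 6, FRMD8 and MAP3K11 in 5, and PCNX3 and SIPA1 in 4. Most calls of RELA, AP000769.1, SSSCA1, MAP3K11 and SIPA1 were thus not ones in the direction of NEAT1. SSSCA1 went against NEAT1 in senescent against proliferative medium, with a rise of 0.47 (edgeR adjusted p = 8.48e-05). Rows within the members, the antisense row AP000769.2 at MALAT1 and MIR612, RF01955, RF01956 and RF01957 in NEAT1 among them, had 0 counts. Whether the counting used strand is not given in the sources used here.

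**Figure D4:**
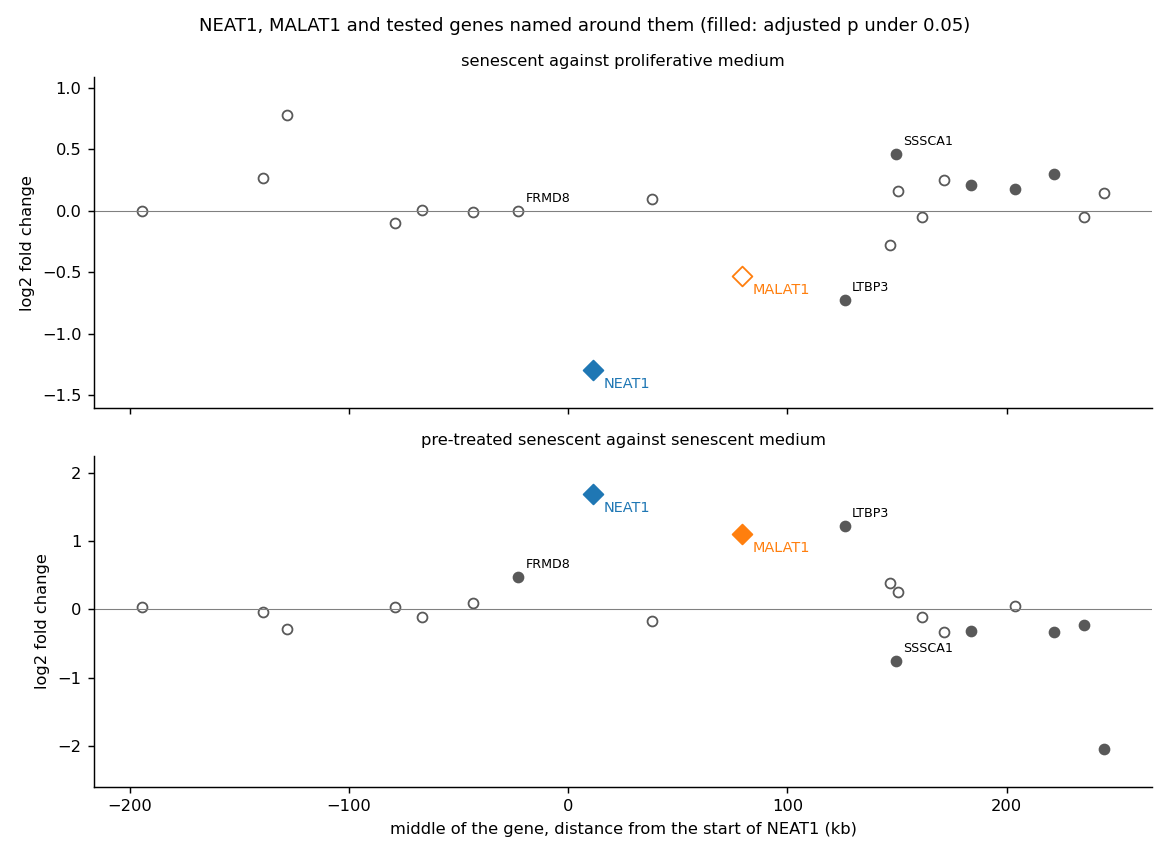
In senescent against proliferative medium (top) and senescent pre-treatment against senescent medium (bottom), log2 fold change of NEAT1, MALAT1 (diamonds) and the tested genes around them that are named in the text (circles) by distance of the gene's middle from the start of NEAT1, in kb; filled symbols passed an edgeR adjusted p of 0.05. LTBP3 went with NEAT1 in both comparisons (-0.73 and 1.23), while SSSCA1 went against it in both (0.47 and -0.75).

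The proteins of paraspeckles, a list of 29 RNA-binding and related factors, were called in both directions. In senescent against proliferative medium 7 rose and 2 fell (median log2 change 0.01), where 16.6% of all genes rose and 12.4% fell (median -0.01). The core protein NONO measured -0.08 ± 0.03 there (edgeR adjusted p = 0.0653), HNRNPK -0.06 ± 0.03 (adjusted p = 0.181), HNRNPA1 -0.09 ± 0.04 (adjusted p = 0.0743) and HNRNPF 0.07 ± 0.06 (adjusted p = 0.385). In senescent pre-treatment against senescent medium 14 rose and 4 fell (median 0.11), where 19.6% of genes rose and 22.5% fell. HNRNPA1 rose by 0.11 ± 0.04 and HNRNPF fell (-0.30 ± 0.06, edgeR adjusted p = 0.000174), while NONO measured 0.06 ± 0.03 (adjusted p = 0.124). In proliferative against fresh medium 6 rose and 11 fell, where 20.6% of all genes rose and 21.5% fell. In senescent against fresh medium 5 rose and 9 fell, where 18.2% rose and 15.5% fell, with HNRNPK among the rises in both (0.27 ± 0.03 and 0.21 ± 0.03). In the small fraction against senescent medium 5 rose and 15 fell, where 19.9% of all genes rose and 22.7% fell. In the large fraction against senescent medium edgeR called 6 higher and 0 lower (8 and 2 at an unadjusted p under 0.05), where 8.14% rose and 10% fell.

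The proteins of nuclear speckles, 28 genes of splicing factors and speckle scaffolds, were mostly called lower in senescent than in fresh medium. There 1 rose and 18 fell (median -0.18), where 18.2% of all genes rose and 15.5% fell. Proliferative against fresh medium also had more falls than rises, with 5 higher and 13 lower (median -0.13), where 20.6% of all genes rose and 21.5% fell. In senescent against proliferative medium 6 rose and 13 fell (median -0.10), where 16.6% of all genes rose and 12.4% fell. SRRM2, a scaffold of speckles, had 1024, 1026 and 1092 CPM in senescent medium against 1354, 1367 and 1354 in proliferative medium, with no overlap (-0.38 ± 0.03, edgeR adjusted p = 2.38e-12). The splicing factors SRSF5 (-0.41 ± 0.05), SF3B1 (-0.22 ± 0.04) and SRSF6 (-0.12 ± 0.04) fell as well (edgeR adjusted p = 2.14e-08, 0.000111 and 0.0427). After boiling, 14 rose and 2 fell against intact senescent medium (11.2% and 14.7% of all genes). In senescent pre-treatment against senescent medium edgeR called 21 higher and 0 lower (21 and 2 at an unadjusted p under 0.05, median 0.38), where 19.6% of all genes rose and 22.5% fell. In proliferative pre-treatment against proliferative medium it called 20 higher and 0 lower (22 and 0 unadjusted, median 0.25), where 13% of genes rose and 13.5% fell. SRRM2 had 2058, 2025 and 2016 CPM in senescent pre-treatment, above every directly exposed library (0.96 ± 0.03, edgeR adjusted p = 3.04e-26). Between the pre-treated groups edgeR called 0 of the 28 (1 higher and 1 lower at an unadjusted p under 0.05).

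**Figure D5:**
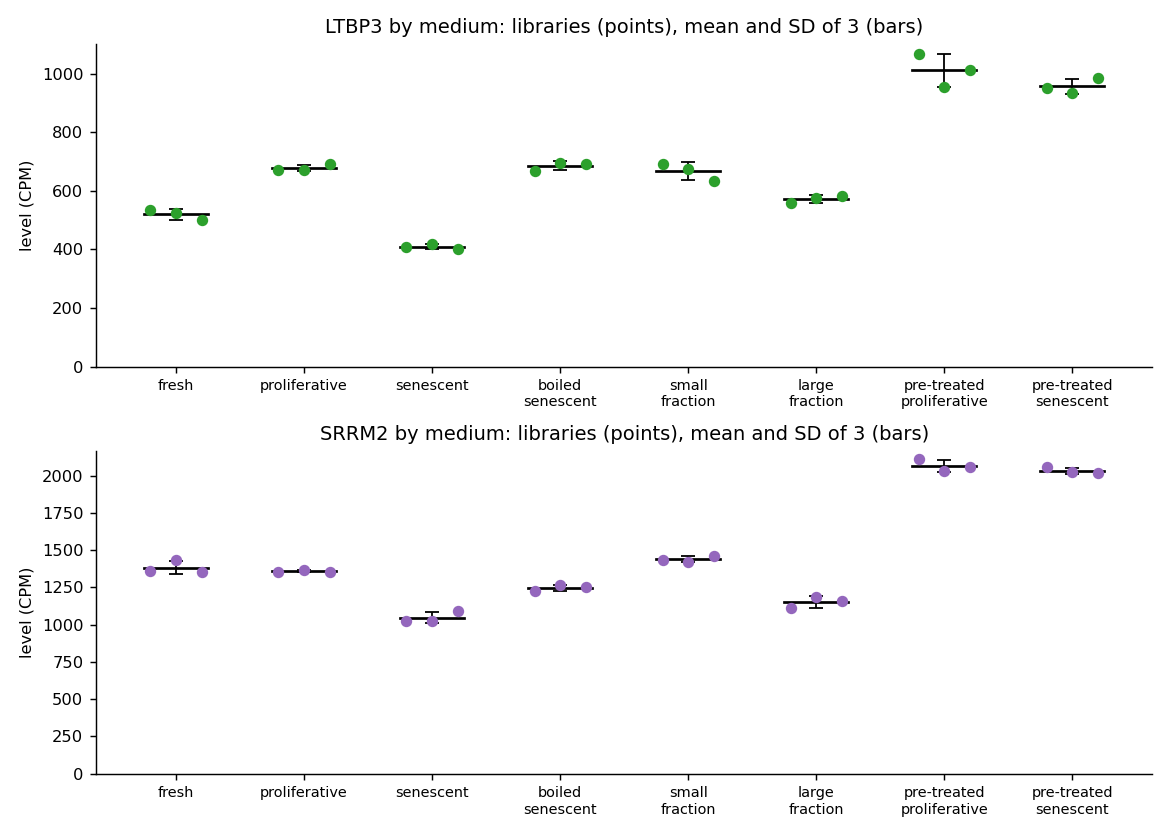
Levels of LTBP3, the neighbouring gene (top), and SRRM2, the speckle scaffold (bottom), in CPM on linear axes from 0; points are libraries and bars are the mean and SD of 3. Both were lowest in senescent medium (409 and 1047 CPM) and highest in the pre-treated groups, as NEAT1 was.

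Factors of RNA end processing and stability, such as subunits of RNase P and the nuclear exosome, had 23 of 25 listed names in the table. The list also held older names of MTREX and SRRT (SKIV2L2 and ARS2), so no listed gene was absent. In proliferative against fresh medium edgeR called 1 higher and 13 lower (median -0.18), where 20.6% of all genes rose and 21.5% fell. In senescent against fresh medium 3 rose and 7 fell (median -0.07), where 18.2% of all genes rose and 15.5% fell. In senescent against proliferative medium edgeR called 11 higher and 0 lower (12 and 1 at an unadjusted p under 0.05, median 0.17), beside 16.6% and 12.4% of all genes. POP7, a subunit of RNase P, rose by 0.41 ± 0.11 (edgeR adjusted p = 0.00507) and SRRT, which links capped RNA to decay, by 0.20 ± 0.06 (adjusted p = 0.00405). XRN2, a nuclear exonuclease, measured 0.11 ± 0.05 (adjusted p = 0.0871) and PABPN1, the nuclear polyA-binding protein, -0.28 ± 0.27 (adjusted p = 0.485). In senescent pre-treatment against senescent medium 6 rose and 5 fell, shares close to the 19.6% and 22.5% of all genes, with POP7 falling (-0.72 ± 0.11) and SRRT rising (0.51 ± 0.05).

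Other long non-coding RNAs, with 42 of 47 rows tested, moved in both directions. In senescent against proliferative medium 7 rose and 13 fell (median -0.07), beside 16.6% and 12.4% of all genes, so the share that rose was at the background. In senescent pre-treatment against senescent medium 15 rose and 12 fell (median 0.03), beside 19.6% and 22.5% of all genes. Among the hosts of small nucleolar RNAs, SNHG5 rose by 0.50 ± 0.05 in the former (edgeR adjusted p = 7.84e-11) and fell in the latter (-0.89 ± 0.05, edgeR adjusted p = 1.19e-18). GAS5 rose by 0.12 ± 0.05 (adjusted p = 0.0485) and fell (-0.39 ± 0.05, adjusted p = 5.35e-09). SNHG6 measured 0.15 ± 0.09 (adjusted p = 0.247) and fell after pre-treatment (-0.79 ± 0.10). NORAD, a cytoplasmic RNA that binds PUMILIO proteins, went with NEAT1 at a smaller size (-0.13 ± 0.04 and 0.11 ± 0.04, edgeR adjusted p = 0.00324 and 0.0137).

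The replication-dependent histones, whose messages normally end in a stem-loop and not a polyA tail, had 35 of 90 rows tested. In senescent against proliferative medium edgeR called 0 higher and 4 lower (1 and 6 at an unadjusted p under 0.05, median -0.25), where 16.6% of all genes rose and 12.4% fell, so the share that fell was near the background. In senescent pre-treatment against senescent medium it called 20 higher and 0 lower (21 and 0 unadjusted, median 0.66), where 19.6% of all genes rose and 22.5% fell. HIST1H2BD fell in the first (-0.81 ± 0.11, edgeR adjusted p = 3.03e-07) and rose by 1.17 ± 0.11 in the second (edgeR adjusted p = 1.54e-11). HIST1H2BK rose by 0.45 ± 0.09 and HIST1H1C by 0.54 ± 0.12 in the second, while HIST3H2A measured 0.11 ± 0.07 (adjusted p = 0.254). Their part in the NEAT1 and MALAT1 results was not tested.

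The genes most like each RNA across the media were ranked by Pearson correlation of the 8 group means of log2 CPM, over 14874 genes with a mean of at least 1 FPKM in a group. For NEAT1 these were NBPF11 (r = 0.988), C2orf92 (r = 0.988), OSBPL7 (r = 0.987), TAS2R5 (r = 0.986) and RBM5 (r = 0.986). RBM5, a splicing regulator, was the most abundant of them, at 13.2 FPKM in senescent medium and 23.0 in senescent pre-treatment, and its r over 24 libraries was 0.961. The r of the others over 24 libraries ran from 0.670 for TAS2R5 to 0.952 for OSBPL7. These values include the group differences on which the genes were ranked. With group means removed, r with NEAT1 ran from -0.430 for C2orf92 to 0.355 for TAS2R5, and was -0.001 for RBM5. All 5 were lowest in senescent medium, as NEAT1 was, which a ranking on group means favours. TAS2R5 was near the limit of measurement, at 0.662 FPKM there. For MALAT1 they were SPATC1 (r = 0.984), CACHD1 (r = 0.975), ZNF493 (r = 0.956), ZNF506 (r = 0.953) and the collagen gene COL1A1 (r = 0.949). SPATC1 and CACHD1 were near the limit of measurement, at 0.290 and 0.598 FPKM in senescent medium. They reached 1 FPKM only in senescent pre-treatment (1.09 and 1.03), where MALAT1 was highest as well. Over 24 libraries the r of these genes with MALAT1 ran from 0.566 for CACHD1 to 0.839 for ZNF493. With group means removed, r with MALAT1 ran from -0.529 for COL1A1 to 0.658 for ZNF493, and was 0.045 for SPATC1. COL1A1 was the one abundant gene among them, at 119 FPKM in senescent and 213 in fresh medium.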

How the data were processed

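Polyadenylated RNA of OVCAR8 cells was extracted with Trizol and a column with DNase and made into libraries with the NEBNext Ultra 2 kit, per the labels' protocols. STAR 2.6.1, DESeq2 (version given as 2) and GRCh38 are named, without roles, in the submitters' processing notes. Which program counted the reads, and whether by strand, is not given in the sources used here. Raw counts per gene and the authors' FPKM were deposited together, and the FPKM equal counts over gene length and 1 constant per library.

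The members and gene lists were chosen with earlier results of these data known. Tests used edgeR 4.0.16 under R 4.3.3 (robust quasi-likelihood, TMM factors 0.957 to 1.03, filterByExpr, 19210 genes, 1 mean per group over 24 libraries, 16 residual degrees of freedom). P-values are two-sided, with Benjamini-Hochberg adjustment over all genes tested and a threshold of 0.05. The standard error is the log2 fold change over the square root of F. Log2 CPM used a prior count of 2. The fit was tested on simulated data. Pairs of replicates differed by 1.61 to 7.88 in chi-square per gene, so none was counted as a copy. Within-group correlations used 100000 permutations within groups. Other settings were library totals, no filter on low counts, DESeq2 1.42.0, limma 3.58.1 on log2(FPKM + 0.1) or log2(FPKM + 1), only the groups compared, length offsets, the replicate number as a block, and leaving out each library. Named in each list are the 4 members with the highest mean FPKM, the tested neighbours (1 is not reported here), and the 5 genes most like each RNA. SSSCA1 and RN7SL2 are described further because of their values, and PABPC1 is given beside RN7SL2. Positions and transcript sequences are GENCODE 29 on GRCh38.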

Additional observations from a re-analysis of the deposited data

Results flagged for a closer look

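The effect of senescent against proliferative medium on NEAT1 differed between direct exposure and pre-treatment. The difference itself was tested and came to 1.17 on the log2 scale (SE 0.13, edgeR adjusted p = 4.56e-06). NEAT1 was lower in 3 of 3 libraries of senescent than of proliferative medium with direct exposure, and the pre-treated groups overlapped. It stayed between 1.07 and 1.29 with any 1 library left out, and was 1.02 with GC and length trends removed. What the pre-treated cells were kept in afterwards is not in the labels, so effects of the pre-treatment and of what followed cannot be told apart.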

How the results depend on the processing

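No log2 change of NEAT1 or MALAT1 reversed. The changed calls were these, as log2 change with adjusted p. For MALAT1, any difference among the 8 groups passed with library totals (adjusted p = 0.0478) and DESeq2 (adjusted p = 0.0184), and boiled against senescent medium passed with DESeq2 (0.764, adjusted p = 0.0317) and limma on log2(FPKM + 0.1) (0.839, adjusted p = 0.0311) or log2(FPKM + 1) (0.819, adjusted p = 0.0296). Fitted on the 2 groups alone, 3 MALAT1 calls were lost: senescent against fresh (-0.955, adjusted p = 0.12), small fraction against senescent (0.891, adjusted p = 0.23) and senescent pre-treatment against senescent medium (1.13, adjusted p = 0.0606). For NEAT1, large fraction against senescent medium was lost with a length offset (0.334, adjusted p = 0.0874) or a GC and length offset (0.361, adjusted p = 0.0636), and small against large fraction with the latter (0.318, adjusted p = 0.0525). With no genome of the build given, the planned offset used length alone; the GC version, from transcripts, and the fit on direct libraries only, which changed no call, were chosen after seeing the data.

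Replicate numbers did not pair the samples: same-numbered deviations correlated at -0.611 to 0.734, all over 0.1 in 1 of 28 group pairs, and 6 of 24 libraries were closest to their own number. With the replicate block, MALAT1 passed for any difference (adjusted p = 0.0371) and for boiled against senescent medium (0.792, adjusted p = 0.0364), and no other call changed.

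With each library left out, NEAT1 small against large fraction ran from 0.273 to 0.375. MALAT1 ran from -1.36 to -0.757 (senescent against fresh), -0.949 to -0.344 (senescent against proliferative), 0.57 to 1.18 (boiled against senescent), 0.584 to 1.30 (small fraction against senescent), 0.398 to 1.00 (large fraction against senescent) 0.0957 to 0.393 (between pre-treated groups) and 0.624 to 1.23 (interaction). Its adjusted p for any difference ran from 0.00897 to 0.224, and its pairs called from 1 to 7. Differences of the NEAT1 to MALAT1 ratio took both signs for boiled (-0.543 to 0.142), small fraction (-0.496 to 0.189) and large fraction (-0.597 to 0.0883) against senescent medium, small against large fraction (-0.280 to 0.339) and proliferative pre-treatment against proliferative medium (-0.0831 to 0.425).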
